A study of Rattus norvegicus with 12 samples.

Results

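Cells build cholesterol and fatty acids from the same precursor, acetyl-CoA, along 2 enzyme pathways that share a family of transcription factors, the sterol regulatory element binding proteins. The sterol and fatty acid synthesis genes described here are 32 listed genes of both pathways, chosen by name: 18 enzymes of cholesterol synthesis, 6 genes of sterol sensing and transport, and 8 genes of fatty acid synthesis. The platform annotation names 31 of the 32, through 54 probe sets, out of 14217 genes named on the array, and Hmgcs1, the enzyme that condenses acetyl-CoA units ahead of mevalonate, is not analysed here. Where a gene has several probe sets, the brightest on average stands for it.

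The study measured RNA in primary rat hepatocytes on 12 Affymetrix arrays, in 4 groups of 3 biological replicates. Treated cells received rat interferon alpha at 250 U/ml for 6 h or for 3 h, starting on the day after isolation, and the control cells were cultured without it for the same times. All 4 groups share the same source, hepatocytes of Wistar rats released by collagenase digestion and enriched by Percoll centrifugation, so every sample is a culture of cells already taken out of the liver, and age, sex and whether animals were pooled are not given in the sources used here. Values are log2 units made by the authors with RMA, a method that equalizes the distribution of probe signals between arrays, so 1 unit is a factor of 2, and levels of different genes are not compared because each probe set binds with its own strength.

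As background, the factor encoded by Srebf2 mainly drives the sterol enzymes and the one encoded by Srebf1, in its liver form, the fatty acid enzymes. Both are held in the endoplasmic reticulum with the escort protein Scap. When sterols are plentiful, Insig proteins anchor Scap there, and when sterols fall the complex leaves, the factor is cut free and enters the nucleus. In rat and mouse liver, insulin raises Srebf1 and lowers the liver transcript of Insig2, whereas Insig1 is itself a target of the factors. Interferon alpha acts through another route, the JAK and STAT proteins, and in mouse macrophages it is known to raise Ch25h, whose product 25-hydroxycholesterol restrains the sterol factors.

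Promoters of 25 of the 32 genes were found in the RefSeq promoter table for assembly GRCr8, each 300 bases long, from 250 bases before to 50 bases after the gene's start. The 5 shown belong to the sterol genes whose difference with time passed the test in every fit that left out 1 array: Mvd, Msmo1 and Idi1, which were lower at 6 h, and Insig1 and Insig2, which moved in opposite directions. They lie on the minus strand at chr19:67414925-67415224 (Mvd), on the plus strand at chr16:29746863-29747162 (Msmo1), and on the minus strand at chr17:66547475-66547774 (Idi1), chr4:8057720-8058019 (Insig1) and chr13:35040049-35040348 (Insig2). Capitals mark CCAAT, the box that factor NF-Y binds, and GGGCGG, the box that Sp1 binds, on either strand, so that ATTGG and CCGCCC are the same boxes read from the other strand.
Mvd: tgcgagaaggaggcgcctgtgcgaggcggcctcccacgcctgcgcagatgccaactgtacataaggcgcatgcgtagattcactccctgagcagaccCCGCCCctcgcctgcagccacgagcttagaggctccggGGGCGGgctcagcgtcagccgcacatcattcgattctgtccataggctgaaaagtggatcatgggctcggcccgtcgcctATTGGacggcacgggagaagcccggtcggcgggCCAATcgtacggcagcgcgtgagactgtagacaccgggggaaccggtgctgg
Msmo1: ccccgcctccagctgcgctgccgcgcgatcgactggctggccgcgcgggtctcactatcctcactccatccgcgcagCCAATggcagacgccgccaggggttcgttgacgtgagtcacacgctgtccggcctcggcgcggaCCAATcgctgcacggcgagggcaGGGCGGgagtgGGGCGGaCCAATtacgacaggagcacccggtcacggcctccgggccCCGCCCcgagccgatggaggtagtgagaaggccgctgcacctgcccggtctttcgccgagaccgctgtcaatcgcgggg
Idi1: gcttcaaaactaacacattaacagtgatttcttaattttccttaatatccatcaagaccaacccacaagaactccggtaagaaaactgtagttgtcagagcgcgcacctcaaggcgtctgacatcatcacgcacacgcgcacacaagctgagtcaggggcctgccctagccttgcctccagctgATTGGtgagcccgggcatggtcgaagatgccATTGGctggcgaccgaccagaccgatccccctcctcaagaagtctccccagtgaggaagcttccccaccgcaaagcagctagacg
Insig1: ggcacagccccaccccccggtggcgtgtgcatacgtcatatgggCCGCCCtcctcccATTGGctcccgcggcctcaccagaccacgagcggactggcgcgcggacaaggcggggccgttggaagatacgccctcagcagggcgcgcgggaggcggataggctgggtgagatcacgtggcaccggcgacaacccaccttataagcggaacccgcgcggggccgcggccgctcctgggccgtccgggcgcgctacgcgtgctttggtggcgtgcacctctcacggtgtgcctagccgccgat
Insig2: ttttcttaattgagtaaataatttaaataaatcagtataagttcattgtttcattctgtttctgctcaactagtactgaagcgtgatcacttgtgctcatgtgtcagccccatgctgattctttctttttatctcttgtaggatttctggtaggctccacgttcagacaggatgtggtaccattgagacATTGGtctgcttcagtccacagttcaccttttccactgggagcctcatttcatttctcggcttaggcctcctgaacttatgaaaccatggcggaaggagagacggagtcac
NF-Y and Sp1 are known partners of the sterol factors at such promoters. A CCAAT box stood in the window of 12 of 15 sterol enzyme genes, 4 of 5 sensing and transport genes and 3 of 5 fatty acid genes, against 37.5% of all 33469 promoters in the table. GGGCGG stood in 13 of 15, 4 of 5 and 3 of 5 of the same genes, against 33.1% of all promoters. The sterol regulatory element, searched as TCACNCCAC on both strands, was in 0 windows of these genes, against 1.12% of all promoters, and the core of the interferon-stimulated response element, searched as GAAA repeated after any 2 bases, was also in 0, against 3.92%. A match describes letters only, and no match says only that these letters are not in this window.

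The 9 measured hepatocyte markers were bright, with albumin (Alb) between 14.61 and 14.71 in every array, while the endothelial marker Pecam1 lay between 3.36 and 4.15 and the lymphocyte marker Cd3e between 3.67 and 4.01, near the lower quartile of all probe sets, which lay at 3.84 to 3.93. Some markers listed for other cells were brighter: Cd14 (monocytes and macrophages) read 11.59 to 12.22, Epcam (cholangiocytes) 10.74 to 11.71, Cd68 and Clec4f (macrophages and Kupffer cells) 5.76 to 7.78 and 5.02 to 6.64, Acta2 (activated stellate cells) 6.02 to 6.49 and Lyve1 (endothelium) 3.31 to 5.80. Array medians spanned 5.16 to 5.21, and the gap between the 3' and 5' actin control probe sets, a gauge of RNA quality, spanned 0.583 to 0.785, with overlap between all 4 groups. In these bulk cultures, fewer cells of a type and less RNA per cell cannot be told apart.

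Interferon alpha raised interferon response genes, and none of the sterol or fatty acid genes was called. Of 5 measured interferon response genes, Cxcl10, a chemokine, rose at both times (4.98 ± 0.52 log2 at 3 h, adjusted p 0.0372, and 4.36 ± 0.52 at 6 h, adjusted p 0.00365, SE, limma), and all 5 rose at 6 h. The other 4 were also higher at 3 h, by at least 1.66 log2, but were not called. At 3 h, then, even large differences could go uncalled. Of the 31 lipid genes, 0 were called at 3 h, where limma called 0.00644% of all 31042 probe sets, and 0 at 6 h, where it called 0.387%. Averaged over both times, 0 of 31 were called, against 0.435% of all probe sets. With shares this small, 0 of 31 does not set the lipid genes apart from other probe sets. A gene is called here at a Benjamini-Hochberg adjusted p under 0.05 over all 31042 probe sets, and 0 of the 31 had an unadjusted p under 0.05 in any of these comparisons. The variant limma-trend also called 0 of 31 in each.

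Samples with the same replicate number varied together, so each comparison was also fitted with the replicate number as a block, which takes that shared variation out of the error. With the block, limma called 0.0966% of probe sets at 3 h, 1.10% at 6 h and 1.10% averaged over both times, and still 0 of the 31 genes in each. The 1 gene with an unadjusted p under 0.05 in the averaged comparison was Hsd17b7, a sterol reductase of late cholesterol synthesis, at -0.16 ± 0.07 log2 (SE, p 0.0356, adjusted p 0.428). The interferon effect did not differ detectably between 6 h and 3 h either: 0 of 31 genes and 0% of all probe sets were called for that difference with or without the block, and 0 of the 31 had an unadjusted p under 0.05.

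The block narrowed what these arrays could have missed. Averaged over both times, the differences of the 31 genes ran from -0.19 log2 for Insig2 to 0.10 for Stard4, with a median of -0.02 for the sterol enzymes, -0.09 for the sensing and transport genes and -0.07 for the fatty acid genes, against -0.02 over all named genes. Without the block the 95% intervals of 21 of 31 genes lay within 0.5 log2 of 0, and that of Fasn reached 1.36 log2 from 0. With the block all 31 lay within 0.5 log2, the farthest bound being 0.42 for Insig2. At single times, 30 of 31 lay within that distance at 3 h and 29 of 31 at 6 h, the farthest bounds being 0.58 for Insig2 at 3 h and 0.61 for Stard4 at 6 h.

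Insig2 read 12.57, 11.89 and 11.69 in the interferon arrays and 12.61, 12.05 and 11.84 in the control arrays at 6 h, against 11.20, 11.02 and 11.10 in the interferon arrays and 11.37, 11.33 and 11.37 in the control arrays at 3 h. Insig2, which holds the sterol factors back, was lower with interferon in 6 of 6 same-numbered pairs, as were 8.12% of all named genes, and its averaged difference of -0.19 ± 0.16 log2 was not called (SE, adjusted p 1.00, and 0.568 with the block). Such pairs come from 3 replicate numbers whose arrays varied together, so 6 pairs are not 6 independent units. Hsd17b7 read 8.62, 8.91 and 8.41 in the interferon arrays and 8.55, 9.21 and 8.74 in the control arrays at 6 h, against 9.02, 9.66 and 9.28 in the interferon arrays and 9.19, 9.79 and 9.37 in the control arrays at 3 h. That gene was lower with interferon in 5 of 6 pairs. Acaca read 10.36, 9.11 and 10.84 in the interferon arrays and 10.48, 9.33 and 11.00 in the control arrays at 6 h, against 10.09, 8.96 and 10.97 in the interferon arrays and 10.09, 9.37 and 10.95 in the control arrays at 3 h. Acaca, the enzyme that makes malonyl-CoA for fatty acid synthesis, differed by -0.15 ± 0.08 log2 with the block (SE, adjusted p 0.534) and was lower with interferon in 5 of 6 pairs.

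Stard4 read 7.83, 7.81 and 7.25 in the interferon arrays and 7.63, 7.67 and 6.91 in the control arrays at 6 h, against 7.42, 7.63 and 7.59 in the interferon arrays and 7.56, 7.48 and 7.70 in the control arrays at 3 h. Stard4 carries cholesterol between membranes, and its values overlapped between treatments at both times. Srebf1 read 11.54, 11.10 and 11.25 in the interferon arrays and 11.44, 10.77 and 11.26 in the control arrays at 6 h, against 11.55, 11.07 and 12.10 in the interferon arrays and 11.47, 11.05 and 12.02 in the control arrays at 3 h. Srebf1, the factor of the fatty acid enzymes, stood at 0.10 ± 0.12 log2 with the block (SE, adjusted p 0.799), a value within the spread of its replicates. Mvk read 7.72, 7.99 and 7.47 in the interferon arrays and 7.42, 7.97 and 7.37 in the control arrays at 6 h, against 7.68, 8.36 and 7.92 in the interferon arrays and 7.71, 8.42 and 7.83 in the control arrays at 3 h. Mvk, mevalonate kinase, differed by 0.07 ± 0.07 log2 with the block (SE, adjusted p 0.762).

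Unlike interferon against control, 6 h against 3 h gave calls among the sterol genes. Whether anything other than time in culture differed between the times was not tested. Between 3 h and 6 h, averaged over interferon and control cultures, 6 of 17 sterol enzymes fell and 0 rose, Insig1 fell and Insig2 rose, and 1 of 8 fatty acid genes, Gpam, fell. In the same fit 2.44% of all 14217 named genes fell and 2.15% rose (1.93% and 1.97% of all probe sets). With the replicate block 14 of 17 sterol enzymes fell and 0 rose, 1 of 6 sensing and transport genes fell and 2 rose, and 4 of 8 fatty acid genes fell and 1 rose, while 12.8% of all named genes fell and 9.40% rose (10.0% and 8.43% of all probe sets). All 17 sterol enzymes had a negative difference, with a median of -0.30 log2 and a range of -0.79 to -0.11, and the median over all named genes was 0.00056 log2. The fatty acid genes had a like median of -0.34 log2 but a range from -0.88 to 0.20, with 6 of 8 below 0.

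**Figure D1:**
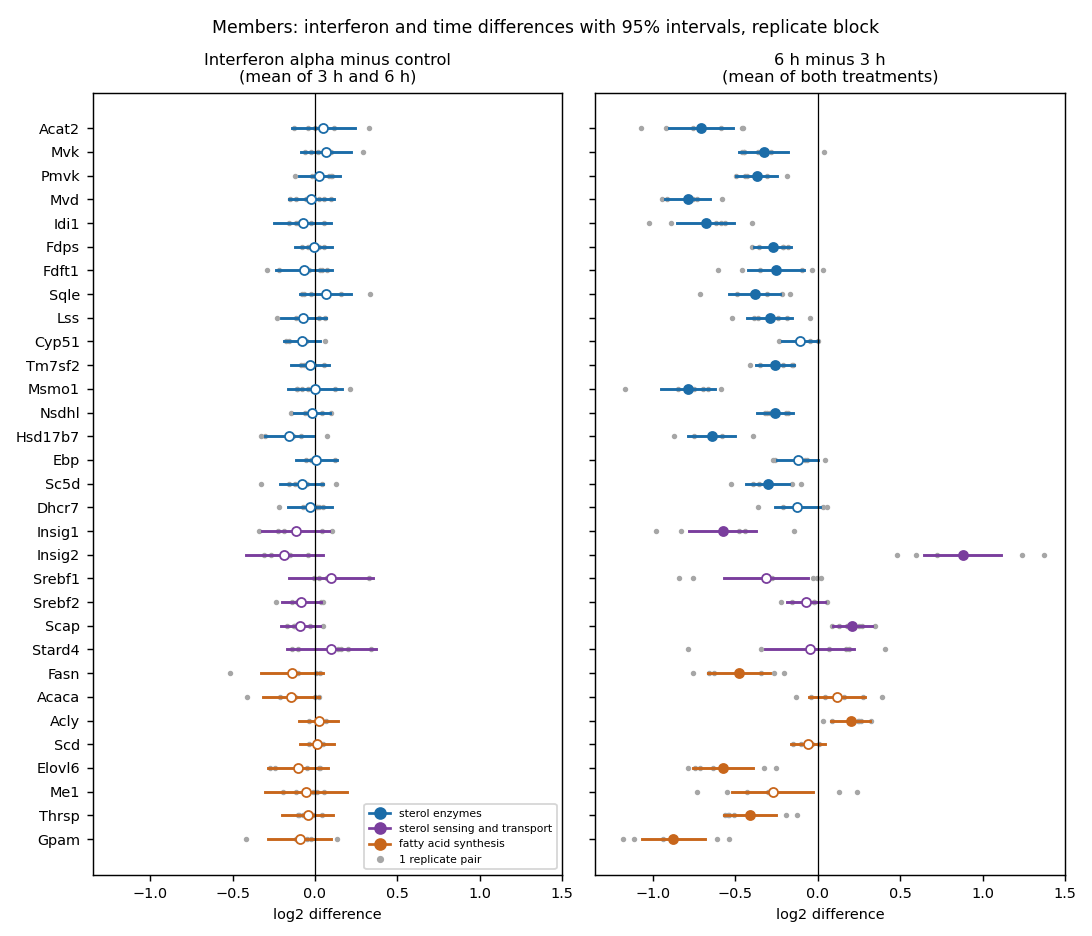
Log2 differences of the 31 genes for interferon alpha minus control (left, mean of 3 h and 6 h) and for 6 h minus 3 h (right, mean of both treatments). Large points are the estimates with 95% intervals from the fit with the replicate block, filled where the adjusted p was under 0.05, and small grey points are the 6 same-numbered pairs. The left panel has no filled point, and in the right panel all 17 sterol enzymes lie left of 0 and Insig2 lies farthest right, at 0.88.

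The first enzymes of the sterol pathway lead from acetyl-CoA to mevalonate and on to the isoprene units. Mvd read 6.47, 6.20 and 6.34 in the interferon arrays and 6.37, 6.17 and 6.50 in the control arrays at 6 h, against 7.05, 7.15 and 7.14 in the interferon arrays and 7.10, 7.09 and 7.25 in the control arrays at 3 h. Mvd, mevalonate diphosphate decarboxylase, fell by 0.79 ± 0.07 log2 (SE, 0.579-fold, adjusted p 0.00122), and all 6 arrays at 6 h lay below all 6 at 3 h. Idi1 read 10.25, 10.48 and 9.97 in the interferon arrays and 10.20, 10.60 and 10.13 in the control arrays at 6 h, against 10.65, 11.10 and 10.99 in the interferon arrays and 10.76, 11.19 and 11.02 in the control arrays at 3 h. Idi1, which interconverts the 2 isoprene units, fell by 0.68 ± 0.13 log2 (SE, adjusted p 0.0168), again with no overlap between the times. Acat2 read 8.37, 8.69 and 8.19 in the interferon arrays and 8.04, 8.82 and 8.23 in the control arrays at 6 h, against 8.83, 9.27 and 9.26 in the interferon arrays and 8.80, 9.27 and 9.15 in the control arrays at 3 h. Acat2, which joins 2 acetyl-CoA molecules in the cytosol, fell by 0.71 ± 0.15 log2 (SE, adjusted p 0.0304), was lower at 6 h in 6 of 6 pairs, and overlapped between the times only through the control array of replicate 2 at 6 h.

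Both mevalonate kinases were called only with the block. Pmvk read 8.73, 8.99 and 8.52 in the interferon arrays and 8.63, 8.89 and 8.65 in the control arrays at 6 h, against 8.92, 9.42 and 9.02 in the interferon arrays and 8.94, 9.33 and 9.01 in the control arrays at 3 h. Pmvk, phosphomevalonate kinase, stood at -0.37 ± 0.06 log2 (block SE, adjusted p 0.00110 with the block and 0.116 without). Mvk, whose values are given above, stood at -0.33 ± 0.07 log2 (block SE, adjusted p 0.00595 with the block and 0.384 without). Pmvk was lower at 6 h in 6 of 6 pairs and Mvk in 5 of 6.

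From the isoprene units, the pathway builds squalene and closes it into lanosterol. Fdps read 12.81, 12.76 and 12.77 in the interferon arrays and 12.79, 12.84 and 12.81 in the control arrays at 6 h, against 13.03, 13.05 and 13.17 in the interferon arrays and 12.97, 13.05 and 13.16 in the control arrays at 3 h. Fdps, farnesyl diphosphate synthase, fell by 0.27 ± 0.05 log2 (SE, 0.827-fold, adjusted p 0.0199), a small change without overlap between the times, and its replicates lay close together. Fdft1 read 10.28, 9.65 and 9.81 in the interferon arrays and 10.32, 9.95 and 10.02 in the control arrays at 6 h, against 10.32, 10.11 and 10.42 in the interferon arrays and 10.29, 10.04 and 10.37 in the control arrays at 3 h. Fdft1, squalene synthase, stood at -0.25 ± 0.08 log2 (block SE, adjusted p 0.0417 with the block and 0.322 without), and in replicate 1 the times hardly differed. The call was lost without replicate 2 (adjusted p 0.219) and without replicate 3, where the difference was -0.14 log2 (adjusted p 0.402). Sqle read 9.67, 9.77 and 8.95 in the interferon arrays and 9.74, 9.60 and 8.62 in the control arrays at 6 h, against 9.89, 10.16 and 9.26 in the interferon arrays and 9.91, 10.09 and 9.34 in the control arrays at 3 h. Sqle, squalene epoxidase, was lower at 6 h in 6 of 6 pairs and stood at -0.38 ± 0.07 log2 (block SE, adjusted p 0.00319 with the block and 0.508 without), while replicate 3 lay lowest in all 4 groups.

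Lss read 7.48, 7.55 and 7.17 in the interferon arrays and 7.60, 7.63 and 7.40 in the control arrays at 6 h, against 7.67, 7.93 and 7.69 in the interferon arrays and 7.65, 7.87 and 7.77 in the control arrays at 3 h. Lss closes squalene epoxide into lanosterol. It stood at -0.29 ± 0.06 log2 (block SE, adjusted p 0.00721 with the block and 0.0915 without), and every array at 6 h lay below every array at 3 h.

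The remaining enzymes trim lanosterol to cholesterol. Msmo1 read 9.89, 9.86 and 10.16 in the interferon arrays and 9.77, 9.97 and 10.27 in the control arrays at 6 h, against 10.48, 11.04 and 10.86 in the interferon arrays and 10.52, 10.82 and 10.94 in the control arrays at 3 h. Msmo1, the methyl sterol oxidase, fell by 0.79 ± 0.12 log2 (SE, 0.579-fold, adjusted p 0.00754), with no overlap between the times. Hsd17b7, whose values are given above, fell by 0.65 ± 0.16 log2 (SE, adjusted p 0.0491, close to the threshold), and was lower at 6 h in 6 of 6 pairs. Sc5d read 10.88, 11.48 and 10.97 in the interferon arrays and 10.94, 11.60 and 11.30 in the control arrays at 6 h, against 11.17, 11.83 and 11.50 in the interferon arrays and 11.33, 11.70 and 11.46 in the control arrays at 3 h. Sc5d, sterol C5 desaturase, stood at -0.30 ± 0.06 log2 (block SE, adjusted p 0.00415 with the block and 0.372 without). Its probe sets differed in size and call. An almost equally bright one (mean 11.33 against 11.35) stood at -0.11 log2 and was not called with the block (adjusted p 0.209). A dimmer one stood at -0.76 log2 (adjusted p 5.58e-05 with the block).

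Tm7sf2 read 10.81, 10.87 and 10.02 in the interferon arrays and 10.82, 10.81 and 10.11 in the control arrays at 6 h, against 10.96, 11.03 and 10.44 in the interferon arrays and 11.03, 11.09 and 10.46 in the control arrays at 3 h. Tm7sf2, a sterol C14 reductase, stood at -0.26 ± 0.05 log2 (block SE, adjusted p 0.00567 with the block and 0.604 without). Nsdhl read 10.39, 10.64 and 10.01 in the interferon arrays and 10.35, 10.70 and 10.15 in the control arrays at 6 h, against 10.64, 10.95 and 10.33 in the interferon arrays and 10.54, 10.99 and 10.34 in the control arrays at 3 h. Nsdhl, a sterol dehydrogenase, stood at -0.26 ± 0.05 log2 (block SE, adjusted p 0.00404 with the block and 0.494 without). Both were lower at 6 h in 6 of 6 pairs, and in both the replicates of a group differed by more than the times did.

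The 3 sterol enzymes that were called in neither fit were Cyp51, the lanosterol demethylase, at -0.11 ± 0.05 log2, Ebp, the sterol isomerase, at -0.12 ± 0.06, and Dhcr7, the last reductase, at -0.12 ± 0.06 (block SE, adjusted p 0.181, 0.177 and 0.216 with the block). Cyp51 ranged over 10.44 to 11.23, Ebp over 10.16 to 10.46 and Dhcr7 over 10.58 to 11.38 across the 12 arrays. Their intervals with the block reached -0.22, -0.25 and -0.26 log2, so a decrease of the size estimated for Mvd, Msmo1, Idi1, Acat2 or Hsd17b7 lay outside all 3 intervals.

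**Figure D2:**
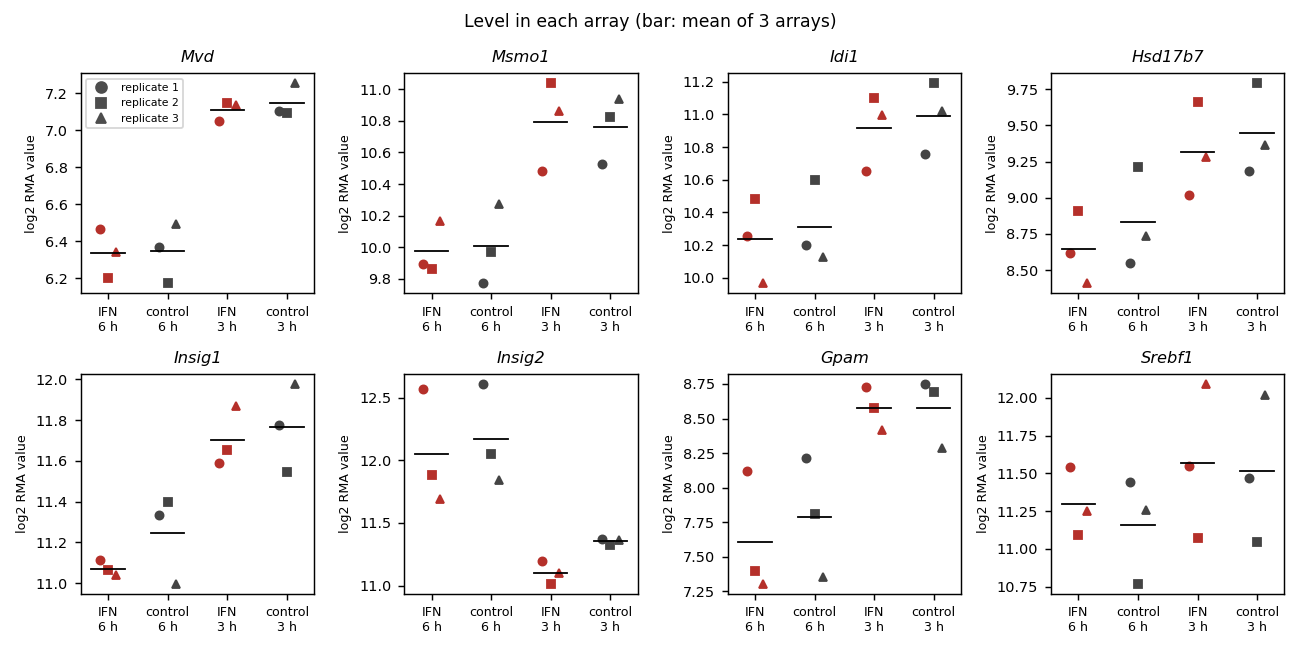
Log2 RMA values of 8 genes in each of the 12 arrays, by group from left to right (interferon alpha 6 h, control 6 h, interferon alpha 3 h, control 3 h), with marker shapes for replicates 1 to 3 and a bar at the mean of 3 arrays. Each panel has its own axis, which does not start at 0; Mvd, Msmo1, Idi1, Insig1 and Gpam lie lower at 6 h than at 3 h in every array, Insig2 lies higher in every array, and Srebf1 overlaps between the times.

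The 2 Insig genes moved apart. Insig1 read 11.11, 11.06 and 11.04 in the interferon arrays and 11.34, 11.40 and 11.00 in the control arrays at 6 h, against 11.59, 11.65 and 11.87 in the interferon arrays and 11.78, 11.55 and 11.98 in the control arrays at 3 h. Insig1 fell by 0.58 ± 0.09 log2 (SE, 0.670-fold, adjusted p 0.00957), every array at 6 h lying below every array at 3 h. Insig2, whose values are given above, rose by 0.88 ± 0.16 log2 (SE, 1.84-fold, adjusted p 0.0145), and it was the only one of the 31 genes with every array at 6 h above every array at 3 h. In its 6 pairs the rise ran from 0.48 to 1.37 log2 and was larger in replicate 1 than in the other replicates under both treatments. A second Insig2 probe set rose alike, by 0.92 log2 (adjusted p 0.0368).

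Scap read 8.92, 8.95 and 9.06 in the interferon arrays and 8.95, 9.07 and 9.19 in the control arrays at 6 h, against 8.57, 8.77 and 8.97 in the interferon arrays and 8.70, 8.94 and 8.92 in the control arrays at 3 h. Scap, the escort of the sterol factors, was at 0.21 ± 0.05 log2 (block SE, adjusted p 0.0180 with the block and 0.214 without). It was higher at 6 h in 6 of 6 pairs, as were 10.9% of all named genes. Its call was lost whichever replicate number was left out (adjusted p 0.0745 to 0.171). Srebf2 read 8.86, 8.85 and 8.59 in the interferon arrays and 8.96, 8.99 and 8.55 in the control arrays at 6 h, against 9.02, 8.90 and 8.54 in the interferon arrays and 8.98, 9.01 and 8.77 in the control arrays at 3 h. Srebf2, the factor of the sterol enzymes, differed by -0.07 ± 0.05 log2 with the block (SE, adjusted p 0.446, interval -0.19 to 0.05). Srebf1, whose values are given above, differed by -0.32 ± 0.12 log2 with the block (SE, adjusted p 0.0889), with pair differences of -0.84 and -0.76 in replicate 3 and from -0.28 to 0.02 in the other replicates. Stard4 stood at -0.05 ± 0.12 log2 with the block (SE, adjusted p 0.855) through its brightest probe set, but a dimmer one fell by 0.61 log2 (adjusted p 0.0274), so its probe sets disagree.

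Fatty acid genes gave a mixed picture. Gpam read 8.12, 7.39 and 7.31 in the interferon arrays and 8.21, 7.81 and 7.35 in the control arrays at 6 h, against 8.73, 8.57 and 8.42 in the interferon arrays and 8.75, 8.69 and 8.29 in the control arrays at 3 h. Gpam, which starts triglyceride synthesis by adding the first acyl chain to glycerol phosphate, fell by 0.88 ± 0.18 log2 (SE, 0.544-fold, adjusted p 0.0221), with all arrays at 6 h below all arrays at 3 h. It was the fatty acid gene called without the block, and the largest decrease among the 31 genes.

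Fasn read 11.41, 9.57 and 11.50 in the interferon arrays and 11.52, 9.69 and 11.63 in the control arrays at 6 h, against 11.76, 9.83 and 12.26 in the interferon arrays and 11.72, 10.35 and 12.26 in the control arrays at 3 h. Fasn, fatty acid synthase, stood at -0.48 ± 0.09 log2 (block SE, adjusted p 0.00279 with the block and 0.769 without), and its replicate 2 lay more than 1 log2 unit below the other replicates in every group. Elovl6 read 9.94, 8.54 and 10.34 in the interferon arrays and 9.92, 8.81 and 10.46 in the control arrays at 6 h, against 10.20, 9.28 and 11.13 in the interferon arrays and 10.25, 9.53 and 11.10 in the control arrays at 3 h. Elovl6, which lengthens palmitate, stood at -0.58 ± 0.08 log2 (block SE, adjusted p 0.000746 with the block and 0.597 without). Thrsp read 13.63, 12.37 and 13.07 in the interferon arrays and 13.66, 12.47 and 13.08 in the control arrays at 6 h, against 13.83, 12.91 and 13.57 in the interferon arrays and 13.78, 13.02 and 13.64 in the control arrays at 3 h. Thrsp, a lipogenic nuclear protein, stood at -0.41 ± 0.07 log2 (block SE, adjusted p 0.00219 with the block and 0.518 without). Fasn, Elovl6 and Thrsp, like Gpam, were lower at 6 h in 6 of 6 pairs.

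Acly read 12.96, 12.25 and 13.41 in the interferon arrays and 12.94, 12.21 and 13.40 in the control arrays at 6 h, against 12.71, 11.93 and 13.38 in the interferon arrays and 12.68, 11.96 and 13.31 in the control arrays at 3 h. Acly, which makes cytosolic acetyl-CoA from citrate and so feeds both pathways, was higher at 6 h in 6 of 6 pairs, as were 10.9% of all named genes. It stood at 0.20 ± 0.05 log2 (block SE, adjusted p 0.0247 with the block and 0.853 without). That call was lost without replicate 1 and without replicate 2 (adjusted p 0.189 and 0.227). Scd read 13.78, 13.38 and 13.90 in the interferon arrays and 13.77, 13.41 and 13.87 in the control arrays at 6 h, against 13.82, 13.53 and 13.93 in the interferon arrays and 13.77, 13.51 and 13.92 in the control arrays at 3 h. Scd, stearoyl-CoA desaturase, differed by -0.06 ± 0.05 log2 with the block (SE, adjusted p 0.454). Acaca, whose values are given above, differed by 0.12 ± 0.08 (SE, adjusted p 0.384) and Me1, malic enzyme, which supplies NADPH and ranged over 9.91 to 11.29, by -0.28 ± 0.11 (SE, adjusted p 0.128), both with the block. A dimmer Acaca probe set stood at 0.39 log2 (adjusted p 0.0283 with the block and 0.745 without).

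In 12 of 17 sterol enzymes and 4 of 8 fatty acid genes the level was lower at 6 h in 6 of 6 pairs, against 14.6% of all named genes. It was higher in 6 of 6 pairs for 3 of the 31 genes, Insig2, Scap and Acly, near the share of all named genes (10.9%). Each replicate number supplies 2 of the 6 pairs, so the pairs are not independent. All arrays at 6 h lay below all arrays at 3 h for 7 of the 31 genes, namely Mvd, Idi1, Fdps, Lss, Msmo1, Insig1 and Gpam, against 2.90% of all named genes, and above them for 1, Insig2, against 1.89%. Whether the sterol enzymes as a group differ from the fatty acid genes was not tested. Without the block, the calls of Mvd, Msmo1, Idi1, Insig1 and Insig2 remained in each of 12 fits that left out 1 array, whereas Acat2, Hsd17b7, Gpam and Fdps each missed the threshold in at least 1 of them. With the block, leaving out 1 replicate number gave 11 to 21 called genes of the 31. Of the 22 genes called with all replicates, Scap was called in none of these 3 fits and Acly in 1. Fdft1, Lss, Mvk, Nsdhl, Sqle and Thrsp lost their calls without replicate 2 and without replicate 3, and Fasn, Fdps, Sc5d and Tm7sf2 without replicate 3. Of the 19 genes with more than 1 probe set, 18 had all of them on the same side of 0 for time, the exception being Me1. Calls for time differed between probe sets of a gene in 4 of 19 genes without the block, namely Idi1, Gpam, Hsd17b7 and Stard4. With the block they differed in 5 of 19, namely Mvk, Sc5d, Scap, Stard4 and Acaca. Second probe sets of Idi1, Gpam and Hsd17b7 gave -0.59, -0.62 and -0.30 log2. They were not called without the block (adjusted p 0.0559, 0.0965 and 0.615), but were called with it.

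Control cultures alone gave fewer calls. For control cells at 6 h minus control cells at 3 h, 1 of 31 genes was called without the block, Mvd, at -0.80 ± 0.10 log2 (SE, adjusted p 0.0275). That call was lost in 7 of 12 fits that left out 1 array, with adjusted p up to 0.131 without the control array of replicate 1 at 6 h. In this comparison limma called 0.0999% of all probe sets as lower and 0.0902% as higher. With the block 14 of 31 fell and 1, Insig2, rose, where it called 4.82% as lower and 3.33% as higher. The 14 comprised 9 sterol enzymes, Insig1 and the fatty acid genes Fasn, Elovl6, Thrsp and Gpam. This contrast uses the same control arrays as the averaged one, so it is not separate evidence.

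The ranges of the summed levels of cell type markers overlapped between the times. The summed level of the 6 measured Kupffer cell and macrophage markers spanned 34.0 to 39.2 log2 units at 6 h and 33.9 to 39.5 at 3 h, and that of the 9 hepatocyte markers 116.1 to 118.6 at 6 h and 117.1 to 118.8 at 3 h. Within same-numbered pairs, however, the hepatocyte sum was lower at 6 h in every pair. The Kupffer cell and macrophage sum went both ways. With interferon the hepatocyte sum was 117.9, 118.6 and 116.2 at 6 h against 118.5, 118.7 and 117.2 at 3 h. In control cultures it was 117.5, 118.3 and 116.1 at 6 h against 118.2, 118.8 and 117.1 at 3 h. Of the hepatocyte markers, Fah, an enzyme of tyrosine breakdown, was called as lower at 6 h with the block (-0.48 ± 0.06 log2, SE, adjusted p 0.000398) and the other 8 were not. In interferon replicate 2, Fah read 10.95 at 6 h against 11.32 at 3 h, a larger drop than that of the whole sum. The other 8 together were thus not lower in that pair. In the remaining pairs the sum fell by more than Fah did. Of the markers of other cells, the endothelial Stab2 was lower at 6 h and the stellate Dcn and cholangiocyte Epcam higher with the block (-0.22 ± 0.06, 0.20 ± 0.06 and 0.18 ± 0.05 log2, block SE, adjusted p 0.0332, 0.0287 and 0.0265), and 0 were called without it. The part of these markers in the time differences of the lipid genes was not tested.

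The replicates of the fatty acid genes lay far apart. The residual SD, the spread of single arrays around their group mean, had a median of 0.59 log2 for the 8 fatty acid genes, 0.30 for the 17 sterol enzymes, 0.24 for the 6 sensing and transport genes and 0.16 for all named genes. It exceeded 0.5 for 5 of 8 fatty acid genes, for 0 of the other 23 and for 5.32% of all named genes. The median level was 10.9 for the fatty acid genes, 10.3 for the sterol enzymes and 10.2 for the sensing and transport genes. Over all named genes it was 6.65. The shares of all named genes given in this text are not matched for level. With the replicate number as a block the medians were 0.16, 0.10, 0.21 and 0.11 log2 in the same order. The median thus dropped most for the fatty acid genes and little for the sensing and transport genes, and for Insig1 the value was 0.17 without the block and 0.19 with it.

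**Figure D3:**
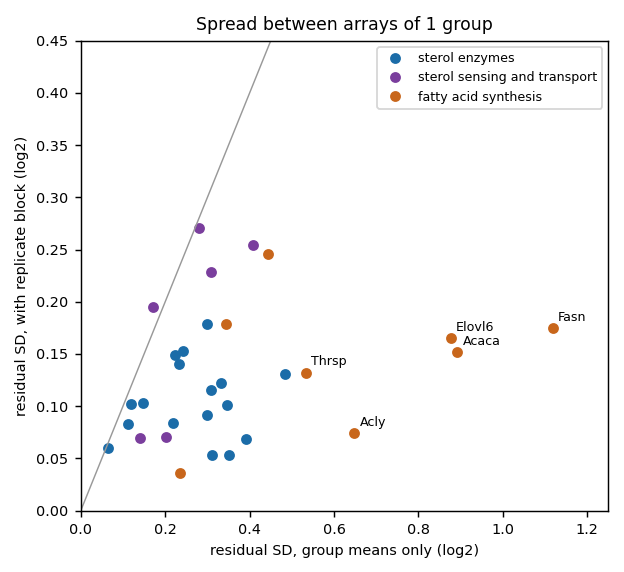
Residual SD (log2) of each of the 31 genes without the replicate block (horizontal) and with it (vertical, on its own scale), coloured by group of genes, with the line of equal values in grey. Fasn, Acaca, Elovl6, Acly and Thrsp lie between 0.53 and 1.12 on the horizontal axis and between 0.07 and 0.17 on the vertical one.

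The fatty acid genes followed 1 order of replicates. In 7 of 8 the mean of replicate 2 was lowest, as in 37.1% of all named genes, and in 6 of 8 replicate 2 was lowest and replicate 3 highest, as in 23.6% of all named genes. Fasn averaged 11.60, 9.86 and 11.91 over the 4 arrays of replicates 1, 2 and 3, a range of 2.05 log2 or 4.15-fold. The range was 1.75 log2 for Acaca, 1.72 for Elovl6, 1.29 for Acly and 1.03 for Thrsp. Gpam alone of the 8 had its lowest mean in replicate 3.

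Of the sterol enzymes, 1 of 17 followed that order, Mvd. In 12 of 17 the mean of replicate 2 was highest, as in 31.0% of all named genes, and in 10 of 17 replicate 1 was lowest, as in 30.8%. Their median range of replicate means was 0.51 log2, against 1.16 for the fatty acid genes and 0.21 for all named genes. The widest sterol enzyme in residual SD was Sqle, at 0.48 log2, whose replicate 3 was lowest. Srebf1 had the order of the fatty acid genes, at 11.50, 11.00 and 11.66 in replicates 1, 2 and 3, as did Insig1, with a range of 0.06 log2. Srebf2, at 8.96, 8.94 and 8.61, did not. The same order held for 23.6% of all named genes. Of 26 measured fatty acid and glyceride genes in a further list described below, 7 had it (26.9%).

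**Figure D4:**
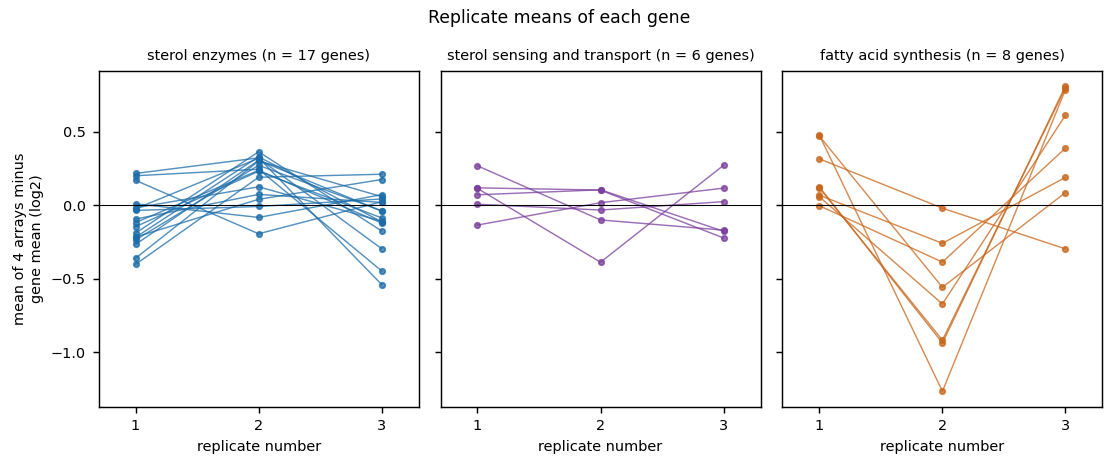
Mean log2 level of each gene over the 4 arrays of a replicate, minus that gene's mean over all 12 arrays, by replicate number, with lines joining the points of 1 gene (replicates have no order). The sterol enzymes lie between -0.6 and 0.4, and 7 of 8 fatty acid genes dip in replicate 2, Fasn to the lowest point of all.

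Many markers of other cells were lowest in replicate 2, but most did not follow the full order of the fatty acid genes. Their means were lowest there for 5 of 6 Kupffer cell and macrophage markers, 3 of 4 endothelial, 6 of 7 stellate cell and fibroblast, 3 of 4 lymphocyte and 1 of 4 cholangiocyte markers. The share of all named genes was 37.1%. In the same sequence of cell types, 1 of 6, 1 of 4, 3 of 7, 2 of 4 and 1 of 4 also had replicate 3 highest. Replicate 1 was instead highest for 5 of 6, 3 of 4, 4 of 7, 1 of 4 and 0 of 4. Several of these markers, such as Pecam1, Dcn and Ptprc, lay near the lower quartile of all probe sets. The bright Epcam was highest in replicate 2, at 11.63 against 10.84 and 11.36 in replicates 1 and 3. The endothelial sum overlapped between replicate 2 (15.5 to 15.9) and replicate 3 (15.1 to 16.1), and was 17.2 to 18.6 in replicate 1. The summed Kupffer cell and macrophage markers spanned 38.5 to 39.5 log2 units in replicate 1, 33.9 to 34.7 in replicate 2 and 35.7 to 36.9 in replicate 3. The macrophage marker Cd68 read 5.76 to 6.22 in replicate 2 and 7.11 to 7.78 in the others. The hepatocyte markers summed to 117.5 to 118.5, 118.3 to 118.8 and 116.1 to 117.2 in replicates 1, 2 and 3. The part of these differences in the fatty acid genes was not tested.

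Genes around both pathways were read from 2 further lists. In sterol handling, which covers transport, esterification, bile acid entry and oxysterol genes, 22 of 24 listed genes were measured: 0 were called for time without the block, and 2 fell and 1 rose with it. Cyp7a1 read 9.95, 9.20 and 4.15 in the interferon arrays and 10.11, 10.44 and 4.68 in the control arrays at 6 h, against 11.57, 11.39 and 7.97 in the interferon arrays and 11.57, 11.71 and 8.12 in the control arrays at 3 h. Cyp7a1, the rate-limiting enzyme of bile acid synthesis, stood at -2.30 ± 0.30 log2 (block SE, adjusted p 0.000467 with the block and 0.448 without), with replicate 3 far below the others at both times. Nr1h3, the oxysterol receptor LXR alpha, fell by 0.63 ± 0.06 log2 and Cyp27a1, a sterol hydroxylase, rose by 0.16 ± 0.05 (block SE, adjusted p 9.06e-05 and 0.0415 with the block).

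Interferon left both further lists without a call. Ch25h read 4.06, 3.92 and 3.93 in the interferon arrays and 3.68, 3.88 and 3.93 in the control arrays at 6 h, against 4.18, 3.98 and 3.96 in the interferon arrays and 3.83, 3.41 and 3.59 in the control arrays at 3 h. The interferon values of Ch25h lay above the control values at 3 h without overlap, but the 2 overlapped at 6 h. How many other genes lay apart at 3 h was not counted. The averaged difference was 0.29 ± 0.08 log2 (SE, limma p 0.00534, adjusted p 0.502). At a mean of 3.86 this probe set lies near the lower quartile of all probe sets. The largest differences in the list were those of Abcg1, a cholesterol exporter, at 0.44 ± 0.26 log2, which rested on 1 array (6.88 in interferon replicate 2 at 6 h, against 4.96 in its control), and of Cyp7a1, at -0.40 ± 1.33 (SE, adjusted p 1.00 for both).

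In fatty acid and glyceride metabolism, 26 of 28 listed genes were measured, and 1 fell and 1 rose with time without the block. Acsl1 read 11.17, 11.05 and 11.02 in the interferon arrays and 11.13, 11.15 and 11.15 in the control arrays at 6 h, against 11.49, 11.51 and 11.67 in the interferon arrays and 11.52, 11.51 and 11.74 in the control arrays at 3 h. Acsl1, which activates long-chain fatty acids, fell by 0.46 ± 0.06 log2 (SE, adjusted p 0.00432). Pnpla2 read 10.38, 10.29 and 9.78 in the interferon arrays and 10.42, 10.23 and 9.79 in the control arrays at 6 h, against 9.69, 9.35 and 9.58 in the interferon arrays and 9.53, 9.35 and 9.74 in the control arrays at 3 h. Pnpla2, the triglyceride lipase ATGL, rose by 0.61 ± 0.14 log2 (SE, adjusted p 0.0342).

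With the block 11 of the 26 fell and 2 rose. Pnpla3 read 7.11, 6.07 and 8.50 in the interferon arrays and 7.42, 5.96 and 8.56 in the control arrays at 6 h, against 7.89, 7.58 and 9.79 in the interferon arrays and 7.94, 7.47 and 9.90 in the control arrays at 3 h. Pnpla3, a lipid droplet protein, had the largest decrease of the list, 1.16 ± 0.13 log2 (block SE, adjusted p 0.000165 with the block and 0.407 without). The desaturases Fads1 and Fads2 fell by 0.71 ± 0.07 and 0.26 ± 0.05 log2, and the elongases Elovl1 and Elovl5 fell by 0.17 ± 0.05 and 0.26 ± 0.06 (block SE, adjusted p 0.000101, 0.00404, 0.0230 and 0.00891). The glyceride enzymes Lpin2 and Agpat2 fell by 0.45 ± 0.08 and 0.37 ± 0.05 log2, and Mlx, Pgd and Fabp1 fell by 0.60 ± 0.06, 0.17 ± 0.05 and 0.19 ± 0.05 (block SE, adjusted p 0.00283, 0.000450, 0.000155, 0.0300 and 0.0158). Mlxipl, the glucose-responsive factor ChREBP whose partner Mlx encodes, rose by 0.59 ± 0.11 log2 (block SE, adjusted p 0.00389). For interferon the largest differences in the list were those of Lpin2, at -0.28 ± 0.18 log2, and Acsl3, at -0.15 ± 0.16 (SE, adjusted p 1.00 for both).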

How the data were processed

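Total RNA of 12 hepatocyte cultures was extracted with Trizol, cleaned on columns and turned into biotinylated cRNA (per the labels' protocols). Each probe set has 1 deposited log2 value per array. The submitters' processing notes name RMA, affy and R 2.10.0. RMA equalizes signal distributions between arrays, which would hide a shift of nearly the whole transcriptome. The sources used here do not name the probe set definition. Leaving out 57 control probe sets left 31042, of which 20826 had 1 gene symbol in the platform annotation, 436 several and 9780 none, and only the first kind is named.

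Groups and replicate numbers came from the sample titles. Differences were tested two-sided with lmFit and eBayes of limma 3.58.1 (R 4.3.3), in 1 fit over all 12 arrays and 4 groups with 8 residual degrees of freedom, for 6 comparisons, each adjusted by Benjamini-Hochberg over 31042 probe sets. The labels call the replicates biological but do not say whether they are separate animals, so p-values measure the spread between these cultures. For pairing, deviations from group means correlated at 0.651 to 0.829 between same-numbered arrays of 1 time and at 0.479 to 0.736 across times, against -0.562 to -0.0747 between different numbers of different groups. The replicate number was therefore also fitted as a block (6 residual degrees of freedom), and its values stand beside each result it changes. No pair of arrays held identical values, and correlations between arrays ran from 0.979 to 0.997. Precision is limited by having 3 arrays in each group. The fit was tested on simulated data.

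The genes and lists were chosen with earlier results of these data known. Values in every array are given for each of these genes called in either fit, for Srebf1, Srebf2, Insig1, Sqle, Fasn, Scd and Acly, and for the 3 largest differences each way in the averaged comparisons. Of the further lists, called genes, the 2 largest differences and Ch25h are named. Alternatives were limma-trend, a filter on dim probe sets, centring arrays on their medians, only the compared arrays, the mean of a gene's probe sets, the block, and leaving out single arrays. The fit with the block that left out 1 replicate number was added after seeing the data.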

Additional observations from a re-analysis of the deposited data

Results flagged for a closer look

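Fdft1, squalene synthase, was singled out because its interferon effect had opposite signs in every replicate at the 2 times. Interferon minus control was -0.04, -0.29 and -0.22 log2 in replicates 1, 2 and 3 at 6 h, against 0.03, 0.07 and 0.04 log2 at 3 h. The difference between the times, 6 h minus 3 h, was -0.23 ± 0.24 log2 (SE, limma, adjusted p 1.00), and -0.23 ± 0.15 with the replicate block (SE, adjusted p 0.999), so it did not pass the test. Neither time was called on its own, at -0.18 ± 0.11 log2 at 6 h and 0.05 ± 0.11 at 3 h (block SE, adjusted p 0.718 and 0.961 with the block). A second Fdft1 probe set gave -0.13 log2 for interferon averaged over both times, against -0.07 for the brightest, which does not bear on the opposite signs.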

How the results depend on the processing

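No interferon comparison called any of the 31 genes under any alternative run, and no called value changed sign. Counts over all probe sets moved more. With the replicate block across times, limma called 30 probe sets for interferon at 3 h, 340 at 6 h, 341 averaged, 2529 in control cells over time and 5724 for time averaged over both treatments, against 2, 120, 135, 59 and 1209 without it. Of the 31 genes it called 15 and 22 for time in control cells and averaged, against 1 and 9. A block within each time gave 10, 341 and 399 probe sets for interferon at 3 h, at 6 h and averaged. Limma-trend gave 1 at 3 h and 8 for time in control cells, with 0 of the 31 genes there. The filter on dim probe sets and the centring each gave 1 at 3 h. Only the compared arrays gave 0 at 3 h, 69 at 6 h and 2 for time in control cells, with 0 of the 31 genes, and the mean of a gene's probe sets gave 29 there.

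Leaving out 1 array at a time gave 0 to 23 probe sets for interferon at 3 h, 56 to 124 at 6 h, 2 to 16 for time in control cells (0 to 1 of the 31 genes) and 644 to 989 for time averaged (6 to 9 of the 31). Leaving out 1 replicate number with the block gave 0 to 112 probe sets for interferon at 3 h, 100 to 291 at 6 h, 111 to 330 averaged and 0 to 18 for the difference between times. It gave 497 to 660 for time in control cells (3 to 9 of the 31) and 3067 to 3846 for time averaged (11 to 21 of the 31). Such fits test fewer samples.

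Without the block, the time call of Fdps was lost without the control array of replicate 1 at 6 h (adjusted p 0.0517). That of Acat2 was lost in 8 of the 12 fits (highest adjusted p 0.0741), of Gpam in 6 (highest 0.0590) and of Hsd17b7 in 11 (highest 0.113). Hsd17b7 was also lost with limma-trend (0.0551), centring (0.0574) and the mean of its probe sets (0.250). Mvd in control cells was lost with limma-trend (0.0564), with only the compared arrays (0.296) and in 7 of the 12 fits (highest 0.131). With the block, Acat2, Elovl6, Gpam, Hsd17b7, Idi1, Insig1, Insig2, Msmo1, Mvd and Pmvk were called whichever replicate number was left out. Me1 was called, at -0.50 log2, without replicate 1 (0.00649). The causes were not tested. With 3 arrays a group, a change near the spread of the replicates could be missed. Without the block the residual SD was widest for Fasn, Acaca and Elovl6 (1.12, 0.89 and 0.88 log2), and with it for Stard4, Srebf1 and Me1 (0.27, 0.25 and 0.25).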
